A study of Danio rerio with 4 samples.

Results

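The genes described here are *fkbp5*, *tsc22d3*, *klf9*, *nr3c1* and *hsd11b2*, the glucocorticoid receptor gene with 3 of its best known targets and the gene of an enzyme that inactivates cortisol. They were taken by symbol from the gene table, which held all 5 among its 17221 genes, and all 5 were among the 17071 genes tested. The libraries are mRNA-seq of heart ventricles of adult AB zebrafish, taken 24 h after cryoinjury, a freezing injury from which the zebrafish heart recovers. There were 2 libraries of Tg(hsp70l:sflt4), a line that makes soluble Flt4, a receptor for Vegfc, from the heat-inducible *hsp70l* promoter, and 2 of WT. Fish of both genotypes were cryoinjured and then heat-shocked at 39 °C, and each library came from a pool of 3 ventricles. The promoter is not specific to a heart cell type, and the labels state neither the sex of the fish nor whether pools were made on separate days. The design asks which transcripts depend on Vegfc, and it allows 1 comparison, Tg(hsp70l:sflt4) against WT, with all fish injured and heated, so neither injury nor heat can be compared with its absence.

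Cortisol is the main glucocorticoid of fish. It enters cells and binds the glucocorticoid receptor, encoded by *nr3c1*, which rests in a complex with Hsp90 and its co-chaperones and, once bound, moves to the nucleus and switches genes on or off. *fkbp5*, *tsc22d3* and *klf9* are among the genes it induces in many tissues. The enzyme encoded by *hsd11b2* converts cortisol to cortisone, which the receptor does not bind well, and so limits how much hormone reaches it. Heat, injury and handling are stressors that can raise cortisol in fish, and Hsp90, which holds the receptor ready for hormone, is also the chaperone that heat shock calls on.

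Normalized totals were 30171847 and 32774116 reads in Tg(hsp70l:sflt4) and 34096403 and 33799004 in WT, in values that the authors had scaled between libraries and then rounded to whole numbers. *flt4* did not separate the genotypes, at 504 and 538 normalized reads in Tg(hsp70l:sflt4) against 618 and 515 in WT, and the sources used here do not say whether reads of the transgene were counted there. Heart muscle was present as labelled: all 9 measured cardiomyocyte markers (of 10) were above 0 in every library, with summed levels of 1075110 and 1148453 in Tg(hsp70l:sflt4) against 1562235 and 1325123 in WT. Limma, a linear model fitted across all genes tested, called 0 genes at an adjusted p under 0.05 (0.0% of 17071). At an unadjusted p under 0.05, 930 genes (5.45%) were lower and 951 (5.57%) higher in Tg(hsp70l:sflt4), and limma-voom called 0 as well, with 1839 genes at that unadjusted level. With 2 libraries a genotype, the smallest two-sided p of an exact permutation test is 0.333.

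All 5 genes had the lower mean in Tg(hsp70l:sflt4), and none of the 5 differences passed the adjusted threshold. For *klf9*, *nr3c1* and *hsd11b2* both Tg(hsp70l:sflt4) libraries lay below both WT libraries, which held for 21.4% of all genes tested, while 21.8% had both above. For *fkbp5* and *tsc22d3* the genotypes overlapped. *klf9* was the single gene of the 5 at limma's unadjusted p under 0.05 in the fit of all 4 libraries without a replicate block. This did not hold in every fit with 1 library left out. In each of the 5 genes Tg(hsp70l:sflt4) replicate 1 was the lowest library, which held for 20.7% of all genes tested. The values are of bulk tissue, in which fewer cells of a type and less RNA per cell cannot be told apart.

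**Figure D1:**
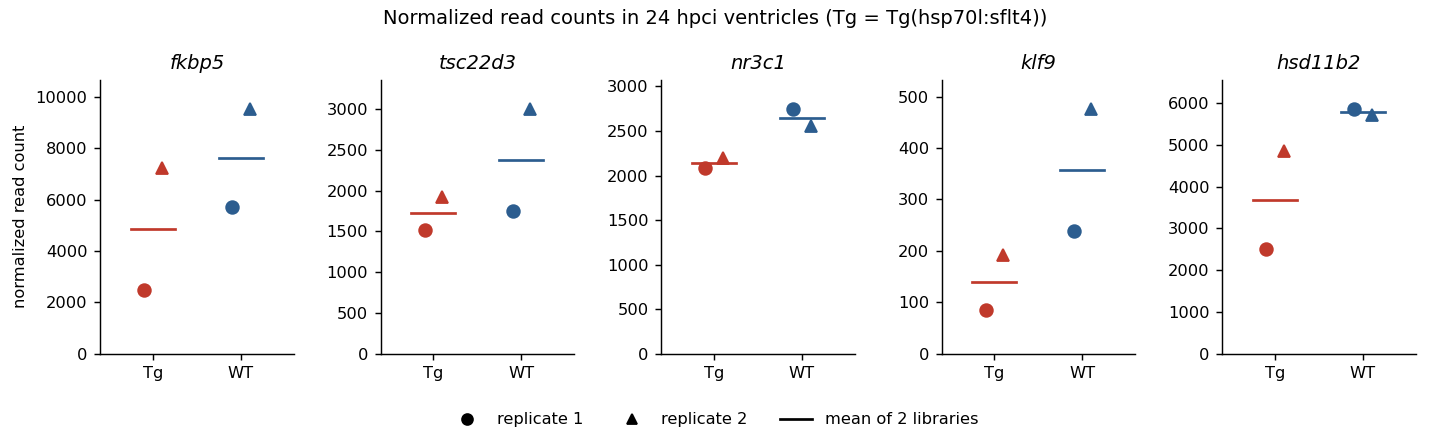
Normalized read counts (linear axes from 0) of the 5 genes in each library, with Tg(hsp70l:sflt4) left of WT in every panel, circles for replicate 1, triangles for replicate 2 and a line at the mean of 2 libraries. The genotypes do not overlap for *klf9*, *nr3c1* and *hsd11b2*, and the circle of Tg(hsp70l:sflt4) is the lowest point of all 5 panels.

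The receptor gene *nr3c1* lies on chromosome 14 from 23746710 to 23801389 on the minus strand (danRer11, as for all positions here). It had 2090 and 2199 normalized reads in Tg(hsp70l:sflt4) replicates 1 and 2, against 2748 and 2554 in WT replicates 1 and 2. Libraries of a genotype were close, 1.05-fold apart in Tg(hsp70l:sflt4) and 1.08-fold in WT, and the Tg(hsp70l:sflt4) mean was 80.9% of the WT mean. The means were 2144.5 ± 77.1 in Tg(hsp70l:sflt4) and 2651 ± 137 in WT (SD, n = 2 each). On the log2(value + 1) scale the difference was -0.31 (SE 0.13, 95% interval -0.64 to 0.03, limma adjusted p = 0.477). This was the smallest difference of the 5 genes and the one with the smallest error. Values are per gene, so transcripts of the receptor were not told apart.

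Gene *hsd11b2*, for the enzyme that inactivates cortisol, lies on chromosome 7 from 35112052 to 35126374 on the minus strand. It had 2507 and 4847 normalized reads in Tg(hsp70l:sflt4), against 5865 and 5709 in WT. The WT libraries were 1.03-fold apart and the Tg(hsp70l:sflt4) libraries 1.93-fold apart, so nearly all of the spread was on the transgenic side. Means were 3677 ± 1655 in Tg(hsp70l:sflt4) and 5787 ± 110 in WT (SD, n = 2 each). The log2 difference was -0.73 (SE 0.31, 95% interval -1.50 to 0.04, limma adjusted p = 0.466). It became -0.26 when Tg(hsp70l:sflt4) replicate 1 was left out and -1.21 when Tg(hsp70l:sflt4) replicate 2 was.

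*klf9* encodes a Krüppel-like zinc finger transcription factor that is induced directly by the receptor in fish and mammals. It lies on chromosome 5 from 26075230 to 26078165 on the plus strand. Its normalized reads were 85 and 192 in Tg(hsp70l:sflt4), against 238 and 476 in WT. All 4 libraries were apart from each other: the 2 of a genotype differed by 2.26-fold in Tg(hsp70l:sflt4) and 2.0-fold in WT, and the higher Tg(hsp70l:sflt4) library was still below the lower WT library. The mean was 138.5 ± 75.7 in Tg(hsp70l:sflt4) and 357 ± 168 in WT (SD, n = 2 each), which is 38.8% of the WT mean. On the log2 scale that gave -1.39 (SE 0.49, 95% interval -2.61 to -0.17, unadjusted p = 0.0324, limma adjusted p = 0.417), the largest difference of the 5. About 93 and 170 reads stood behind the Tg(hsp70l:sflt4) values and 243 and 483 behind those of WT, so counting error was at most 10.4% of a value and small beside the spread of libraries.

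*fkbp5* encodes an immunophilin that joins the Hsp90 complex of the receptor and, in mammals, lowers its affinity for hormone, so that its induction acts as feedback. The gene lies on chromosome 6 from 41096058 to 41117242 on the plus strand. It had 2497 and 7226 normalized reads in Tg(hsp70l:sflt4), against 5714 and 9533 in WT. Tg(hsp70l:sflt4) replicate 2 was above WT replicate 1, so the genotypes overlapped, and the 2.89-fold gap between the Tg(hsp70l:sflt4) libraries was the widest within a genotype for any of the 5 genes. A gap at least as wide was found in 2.12% of all genes tested. Means were 4861.5 ± 3344 in Tg(hsp70l:sflt4) and 7623.5 ± 2700.4 in WT (SD, n = 2 each). The log2 difference was -0.80 (SE 0.52, 95% interval -2.08 to 0.49, limma adjusted p = 0.610). It rested on Tg(hsp70l:sflt4) replicate 1, without which it was -0.03.

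*tsc22d3* encodes the glucocorticoid-induced leucine zipper protein, which in mammals binds and restrains the inflammatory factors NF-kB and AP-1. The gene lies on chromosome 14 from 27998756 to 28001986 on the minus strand. Values were 1521 and 1919 normalized reads in Tg(hsp70l:sflt4), against 1751 and 3003 in WT. Only WT replicate 2 stood apart, 1.71-fold above WT replicate 1, while the other libraries lay within the range from 1521 to 1919. The mean was 1720 ± 281 in Tg(hsp70l:sflt4) and 2377 ± 885 in WT (SD, n = 2 each). The log2 difference was -0.42 (SE 0.28, 95% interval -1.12 to 0.27, limma adjusted p = 0.612), and without WT replicate 2 it was -0.04.

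**Figure D2:**
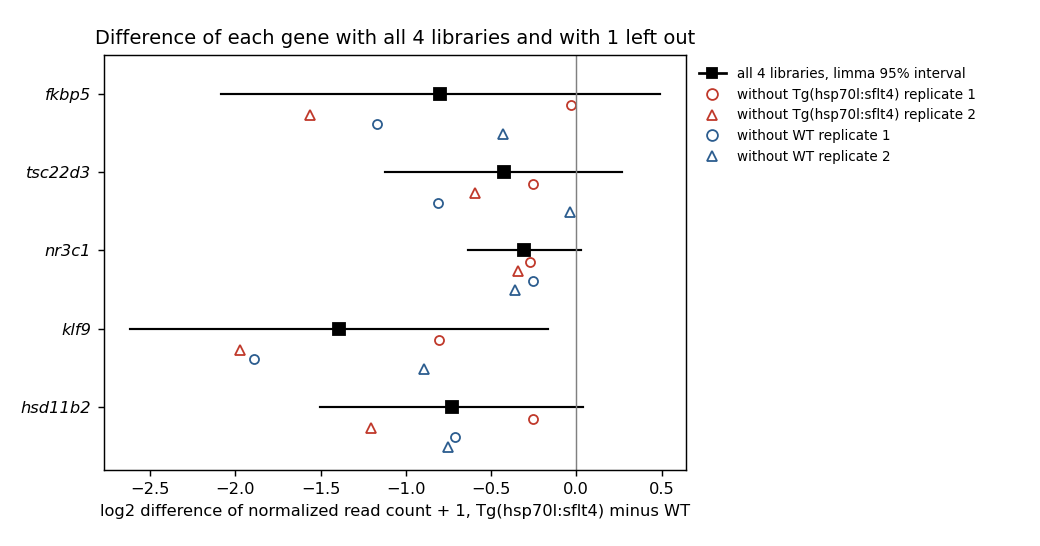
Log2 difference of each gene (x axis, normalized read count + 1, Tg(hsp70l:sflt4) minus WT), as a black square with limma's 95% interval for all 4 libraries and as open symbols with 1 library left out. All symbols are below 0, *nr3c1* moves least, between -0.36 and -0.25, and *fkbp5* most, between -1.56 and -0.03.

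With 1 library left out, all 5 genes kept a lower mean in Tg(hsp70l:sflt4), but the sizes changed. *klf9* ranged between -1.97 and -0.81, the values when replicate 2 and when replicate 1 of Tg(hsp70l:sflt4) was left out, and was at -1.89 without WT replicate 1 and -0.89 without WT replicate 2. *fkbp5* was at -1.56 without Tg(hsp70l:sflt4) replicate 2, -1.17 without WT replicate 1 and -0.43 without WT replicate 2. *tsc22d3* was at -0.81 without WT replicate 1, -0.26 when Tg(hsp70l:sflt4) replicate 1 was left out and -0.59 when its replicate 2 was. For *hsd11b2* leaving out a WT library changed little, with -0.71 and -0.75. None of these 5 genes was called in any of the 13 alternatives. Scaling the libraries to equal totals raised the median of all genes by 0.11 on the log2 scale, and the 5 genes stayed lower, *nr3c1* at -0.19 and *klf9* at -1.28.

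The 3 target genes did not follow the receptor gene from library to library. The ratio of *fkbp5* to *nr3c1* reads, which has meaning only across libraries since transcript lengths were not used, was 1.19 and 3.29 in Tg(hsp70l:sflt4), against 2.08 and 3.73 in WT. Within each genotype replicate 2 had the higher ratio, while *nr3c1* itself hardly moved. For *klf9* to *nr3c1* the ratio was 0.0407 and 0.0873 in Tg(hsp70l:sflt4), against 0.0866 and 0.186 in WT. *tsc22d3* to *nr3c1* gave 0.728 and 0.873 in Tg(hsp70l:sflt4), against 0.637 and 1.176 in WT, so the transgenic libraries fell between those of WT. The ratio of *klf9* to *fkbp5* did not overlap, at 0.0340 and 0.0266 in Tg(hsp70l:sflt4) against 0.0417 and 0.0499 in WT, a description with no test. *hsd11b2* to *nr3c1* was 1.2 in Tg(hsp70l:sflt4) replicate 1 and 2.20 in replicate 2, against 2.13 and 2.24 in WT, which sets Tg(hsp70l:sflt4) replicate 1 alone apart.

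Differences between libraries of the same genotype were as large as those between genotypes for part of these genes. Replicate 2 was above replicate 1 in both genotypes for *fkbp5*, *tsc22d3* and *klf9*. The median gene differed between libraries of a genotype by 0.21 on the log2 scale in Tg(hsp70l:sflt4) and by 0.30 in WT. *klf9* differed by 1.17 in Tg(hsp70l:sflt4) and 0.997 in WT, a size reached or passed by 4.22% of genes in Tg(hsp70l:sflt4) and 11.5% in WT. *fkbp5* differed by 1.53 in Tg(hsp70l:sflt4) and 0.74 in WT, and *tsc22d3* by 0.34 and 0.78. *nr3c1* was below the median gene in both, at 0.07 and -0.11 (replicate 2 minus replicate 1). *hsd11b2* was spread in Tg(hsp70l:sflt4), at 0.95, and not in WT, at -0.04.

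**Figure D3:**
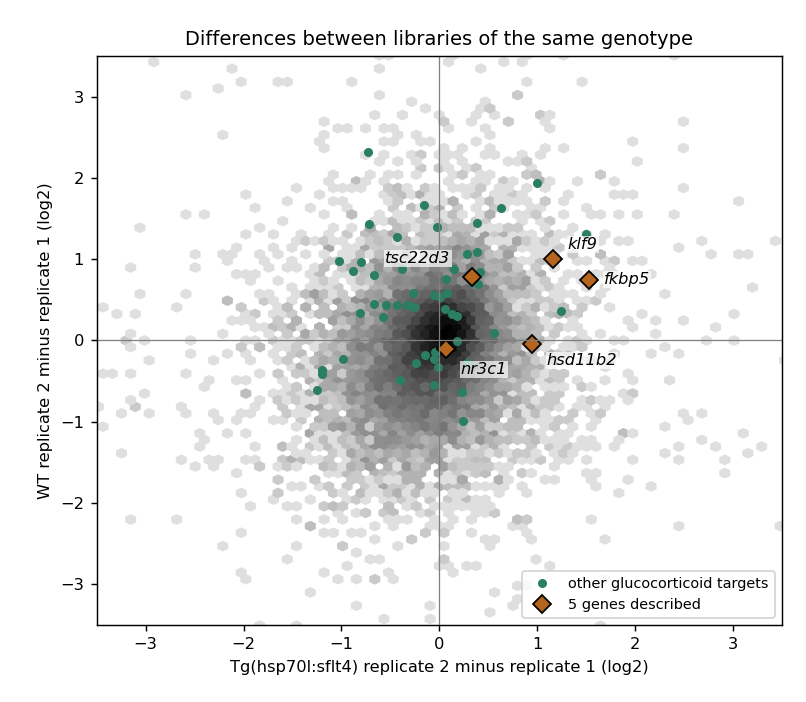
Log2 difference of replicate 2 minus replicate 1 in Tg(hsp70l:sflt4) (x axis) and in WT (y axis), with all genes tested as grey cells (darker for more genes, logarithmic shading), 52 other glucocorticoid targets as green points and the 5 genes as brown diamonds. *klf9*, *fkbp5* and *tsc22d3* lie in the upper right, where replicate 2 is higher in both genotypes, *nr3c1* is near the centre, and 115 genes lie outside the axes.

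Other genes that the receptor can induce or repress were compared through a list of 60 symbols, of which 52 were measured. The list was chosen with earlier results of these data known, so its shares are a description and not an independent test. Many genes of the list also answer to other signals, such as insulin and Foxo factors or hypoxia. None was called by limma. At an unadjusted p under 0.05 there were 13 lower (25% of 52, against 5.45% of all genes) and 1 higher (1.92%, against 5.57%) in Tg(hsp70l:sflt4). Both Tg(hsp70l:sflt4) libraries lay below both WT libraries for 19 genes (36.5%, against 21.4%) and above both for 4 (7.69%, against 21.8%). The median log2 difference was -0.34, against -0.01 over all genes tested, with 34 genes below 0 and 18 above. Without 1 library the median was between -0.55 (without WT replicate 1) and -0.16 (without WT replicate 2). Without WT replicate 1 the median of heat-inducible chaperones was also lower, at -0.57. These fits leave 1 library in a genotype, so their spread comes from the other genotype alone, and no counts are given for them. With all 4 libraries scaled to equal totals, 10 of the 52 were lower at an unadjusted p under 0.05 (19.2%, against 3.22% of all genes). With the replicate number as a block 15 were lower (28.8%, against 6.47%). In each of these 2 fits 1 of the 52 was higher, as were 1584 and 1180 of all 17071 genes. In the alternatives that kept all 4 libraries limma called 0 of the 52.

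The smallest p of the list was that of *ddit4*, which encodes an inhibitor of mTORC1 that glucocorticoids and other stresses induce. It had 211 and 120 normalized reads in Tg(hsp70l:sflt4), against 699 and 882 in WT (log2 difference -2.30, SE 0.31, limma adjusted p = 0.193). *sesn1*, for a sestrin that also restrains mTORC1, had 1243 and 918 in Tg(hsp70l:sflt4), against 2250 and 3035 in WT (log2 difference -1.29, SE 0.22, limma adjusted p = 0.272). In both genes the transgenic libraries stood well below the WT ones, with replicate 1 the higher of the Tg(hsp70l:sflt4) libraries. *cdkn1ca*, a cyclin-dependent kinase inhibitor gene, had 99 and 62 in Tg(hsp70l:sflt4), against 227 and 311 in WT (log2 difference -1.75, SE 0.33, limma adjusted p = 0.272). *lpin1*, for a phosphatidate phosphatase of lipid synthesis, had 413 and 467 in Tg(hsp70l:sflt4), against 706 and 870 in WT (log2 difference -0.83, SE 0.18, limma adjusted p = 0.306). None of these 4 differences passed the adjusted threshold. The largest difference of the list in size was that of *igfbp1b*, for a binding protein of insulin-like growth factors, named after its values were seen, with 4 and 9 in Tg(hsp70l:sflt4), against 41 and 160 in WT (log2 difference -3.54, SE 0.77, limma adjusted p = 0.309). Over the whole list, 13 of the 52 were lower (25%, against 5.45% of all genes) and 1 higher (1.92%, against 5.57%) at limma's unadjusted p under 0.05. *per1a* had 49 and 47 in Tg(hsp70l:sflt4) against 120 and 102 in WT (limma adjusted p = 0.313). *dusp1*, for a phosphatase that turns off MAP kinases, gave no such gap, at 4482 and 2818 in Tg(hsp70l:sflt4) against 2540 and 4441 in WT. Nor did *sgk1*, for a kinase of ion transport, at 3166 and 3187 in Tg(hsp70l:sflt4) against 2594 and 3762 in WT. *per1a*, *dusp1* and *sgk1* were also named after their values were seen.

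**Figure D4:**
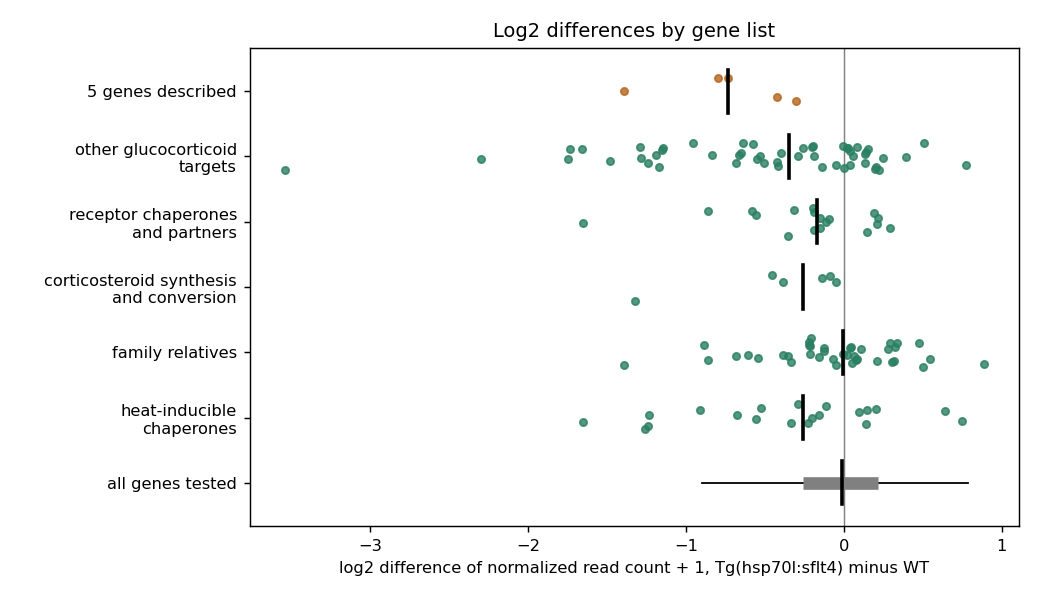
Log2 difference (x axis, normalized read count + 1, Tg(hsp70l:sflt4) minus WT) of every measured gene of 6 lists, 1 point per gene with a bar at the list's median, and at the bottom all genes tested with the median, the middle 50% (thick) and the middle 90% (thin). The medians are -0.73 for the 5 genes, -0.34 for other glucocorticoid targets and -0.01 for all genes tested, and no gene shown passed the adjusted threshold.

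The 5 genes and the other targets parted within Tg(hsp70l:sflt4). While Tg(hsp70l:sflt4) replicate 1 was the lowest library in all 5 genes, it was lowest in 12 of the 52 other targets (23.1%), and Tg(hsp70l:sflt4) replicate 2 in 21 (40.4%). Over all genes tested these shares were 20.7% and 25.7%. The lists were alike in WT replicate 2, the highest library in *fkbp5*, *tsc22d3* and *klf9* and in 28 of the 52 other targets (53.8%, against 26.4% of all genes). The mean log2 deviation of the 5 genes from their 4-library means was -0.77 and 0.04 in Tg(hsp70l:sflt4), against 0.13 and 0.60 in WT. For the 52 other targets it was -0.19 and -0.32 in Tg(hsp70l:sflt4), against 0.01 and 0.50 in WT.

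Among 18 genes for chaperones and other partners of the receptor, all measured, 13 were lower and 5 higher in Tg(hsp70l:sflt4), with a median log2 difference of -0.17 and 0 called. The median was -0.11 when Tg(hsp70l:sflt4) replicate 2 was left out, -0.08 when WT replicate 1 was, and -0.06 with libraries scaled to equal totals. Both Tg(hsp70l:sflt4) libraries were below both WT libraries for 9 (50%, against 21.4% of all genes) and above both for 2 (11.1%, against 21.8%). At an unadjusted p under 0.05, 0 were higher (5.57% of all genes were) and 2 lower (11.1%, against 5.45%). These were *st13* and *fkbp4*, each for a co-chaperone of Hsp90 and Hsp70 complexes. *fkbp4*, the nearest relative of *fkbp5* and in mammals its counterpart that aids movement of the receptor to the nucleus, had 5653 and 4235 normalized reads in Tg(hsp70l:sflt4), against 7822 and 10082 in WT (log2 difference -0.86, SE 0.21, limma adjusted p = 0.313). *st13* had 3103 and 3261 in Tg(hsp70l:sflt4), against 4602 and 4934 in WT (log2 difference -0.58, SE 0.14, limma adjusted p = 0.313). Unlike *fkbp5*, *fkbp4* was lower in replicate 2 of Tg(hsp70l:sflt4), so the ratio of *fkbp5* to *fkbp4* was 0.442 and 1.71 in Tg(hsp70l:sflt4), against 0.731 and 0.946 in WT. The heat-inducible Hsp90 gene *hsp90aa1.1* had 24555 and 6084 in Tg(hsp70l:sflt4), against 24603 and 59627 in WT, a wide spread within both genotypes. *ptges3b*, for the p23 co-chaperone, was higher, at 4085 and 3892 in Tg(hsp70l:sflt4) against 3248 and 3271 in WT (limma adjusted p = 0.489). The mineralocorticoid receptor gene *nr3c2*, whose product also binds cortisol, was named after its values were seen and was low, at 26 and 42 in Tg(hsp70l:sflt4) against 30 and 27 in WT.

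Of 19 genes of steroid synthesis, conversion and transport, 6 were measured. All 6 had the lower mean log2 value in Tg(hsp70l:sflt4), as did 51.3% of all genes tested, and 4 of 6 when libraries were scaled to equal totals. The median log2 difference was -0.26. For none of the 6 were the genotypes apart. Of all genes tested, 21.4% had both Tg(hsp70l:sflt4) libraries below both WT libraries and 21.8% had both above. The median was -0.50 without WT replicate 1, -0.04 without WT replicate 2 and -0.15 with equal totals. *hsd11b1la*, related to the mammalian enzyme that regenerates cortisol, had 394 and 358 normalized reads in Tg(hsp70l:sflt4), against 614 and 393 in WT. *h6pd*, which supplies that reaction with NADPH in mammals, had 587 and 707 in Tg(hsp70l:sflt4), against 646 and 776 in WT. *cyp17a1* had 24 and 25 against 25 and 46, and *fdx1b* 10 and 3 against 24 and 10, Tg(hsp70l:sflt4) before WT in both, values too low to set apart.

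Relatives of the 5 genes, that is other Fkbp, Tsc22 domain, steroid receptor and Krüppel-like genes and *hsd11b1la*, were split between the genotypes. Of 39 measured, 20 were lower and 19 higher in Tg(hsp70l:sflt4), the median log2 difference was -0.00, and 0 were called. With libraries scaled to equal totals 17 were lower and the median was 0.11, and without WT replicate 2 the median was -0.17. Leaving out WT replicate 1 moved the log2 difference of *fkbp7*, named after its values were seen, from 0.50 to 1.05, and that of *klf11b* from -0.89 to -1.31. *klf11b*, for a Krüppel-like factor, had 1726 and 1445 normalized reads in Tg(hsp70l:sflt4), against 2169 and 3926 in WT (limma adjusted p = 0.392). *klf6a* was higher, at 5751 and 6105 in Tg(hsp70l:sflt4) against 4485 and 5021 in WT (limma adjusted p = 0.488), as was *fkbp2*, for a chaperone of the endoplasmic reticulum, at 2310 and 2770 against 2121 and 1899 (limma adjusted p = 0.499). The closest relatives of *tsc22d3*, *tsc22d1* and *tsc22d2*, which were named after their values were seen, had log2 differences of 0.11 and 0.02.

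Heat shock genes differed between libraries of the same genotype. *hsp70l*, whose promoter drives the transgene, had 1191 and 647 normalized reads in Tg(hsp70l:sflt4), against 461 and 4264 in WT. The list of 20 heat-inducible chaperone genes also holds the heat shock transcription factor genes *hsf1* and *hsf2*. WT replicate 2 was the highest library in 16 of the 20 (80.0%, against 26.4% of all genes tested). Their summed level was 363477 and 288619 in Tg(hsp70l:sflt4), against 276926 and 425285 in WT. WT replicate 2 was thus most often the highest library for these chaperones, as for the other targets (28 of 52). It was also the highest for *fkbp5*, *tsc22d3* and *klf9*. The library most often lowest for the chaperones, in 11 of 20, was WT replicate 1 and for the 5 genes Tg(hsp70l:sflt4) replicate 1. The median log2 difference of the chaperones was -0.26, and leaving out a Tg(hsp70l:sflt4) library gave -0.51 (replicate 1) or -0.09 (replicate 2). Leaving out a WT library gave -0.57 (replicate 1) or 0.18 (replicate 2). *hsph1*, for a co-chaperone of Hsp70, had 2318 and 1157 in Tg(hsp70l:sflt4), against 2893 and 5131 in WT (limma adjusted p = 0.391), *hsf2*, for a heat shock transcription factor, had 306 and 306 against 400 and 484 (limma adjusted p = 0.406), and *hspb11*, for a small heat shock protein, went the other way at 124427 and 102823 against 62997 and 83476 (limma adjusted p = 0.409). Their part in the values of the 5 genes was not tested.

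**Figure D5:**
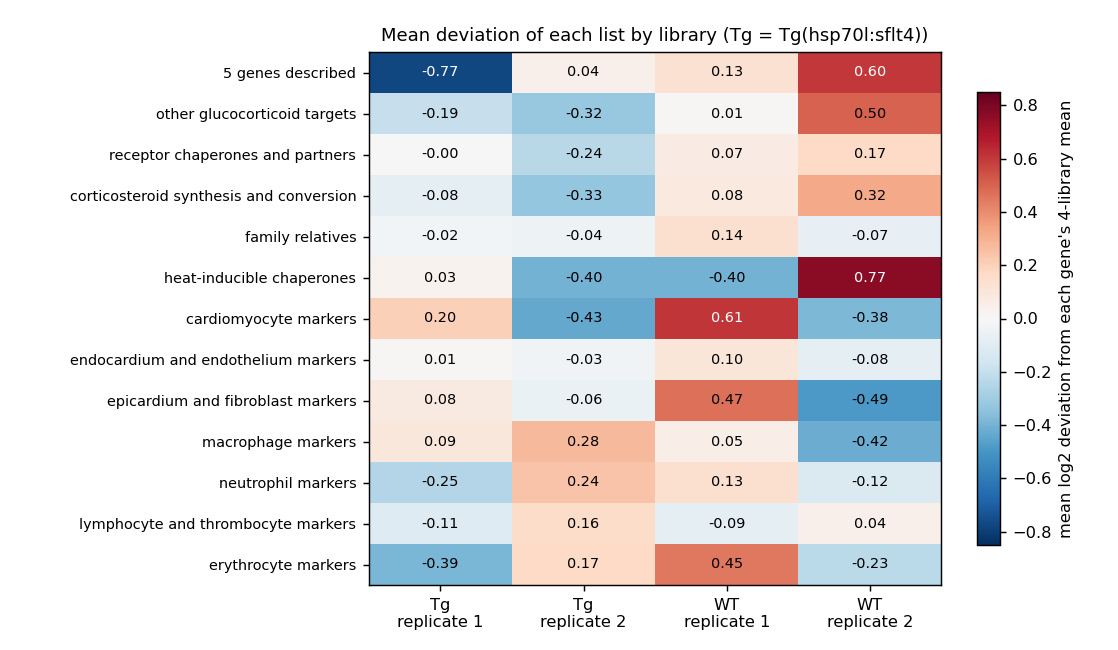
Mean log2 deviation of each list's genes from their own 4-library means, by library, with Tg(hsp70l:sflt4) left of WT and red for higher. The 5 genes run from -0.77 in Tg(hsp70l:sflt4) replicate 1 to 0.60 in WT replicate 2, and heat-inducible chaperones reach 0.77 in WT replicate 2.

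Markers of other cell types also moved between libraries. Macrophage markers, 11 of 11 measured and 8 higher in Tg(hsp70l:sflt4), summed to 64927 and 78485 in Tg(hsp70l:sflt4), against 42474 and 42067 in WT, and 4 of them were higher at an unadjusted p under 0.05 (5.57% of all genes were). These 4 were *grn1*, *irf8*, *lgals3bpb* and *mfap4* (log2 differences 1.30, 0.65, 1.48 and 0.78), none was called, and 0 markers were lower at that level. Both Tg(hsp70l:sflt4) libraries lay above both WT libraries for 5 of the 11 (45.5%, against 21.8% of all genes). The macrophage markers did not move as 1 group. Both Tg(hsp70l:sflt4) libraries lay below both WT libraries for 3, *csf1ra*, *cd74a* and *cd74b* (27.3%, against 21.4%), and *mpeg1.1* had a log2 difference of 0.01. The mean log2 deviation of the 11 markers was 0.09 and 0.28 in Tg(hsp70l:sflt4), against 0.05 and -0.42 in WT. *csf1ra*, *cd74a*, *cd74b* and *mpeg1.1* were named after their values were seen. Neutrophil markers, 9 of 10 measured, summed to 10926 and 18018 against 11356 and 13799, Tg(hsp70l:sflt4) before WT. Erythrocyte markers, 10 of 10 measured, summed to 39979 and 77821 in Tg(hsp70l:sflt4), against 85143 and 47787 in WT, with Tg(hsp70l:sflt4) replicate 1 the lowest library as for the 5 genes. The sums of cardiomyocyte, neutrophil, and lymphocyte and thrombocyte markers were lowest there too, and Tg(hsp70l:sflt4) replicate 1 had the lowest normalized total. By mean log2 deviation, cardiomyocyte markers were instead lowest in Tg(hsp70l:sflt4) replicate 2, at -0.43, against 0.20 in Tg(hsp70l:sflt4) replicate 1. These 2 means rest largely on 1 of the 10 rows, a second row of *actc1a*, named after its values were seen. It had 5771 and 50 in Tg(hsp70l:sflt4) against 11241 and 65 in WT. Tg(hsp70l:sflt4) replicate 1 was the lowest library in 5 of the 10 rows (50%, against 20.7% of all genes). Tg(hsp70l:sflt4) replicate 2 was lowest in 1 (10%, against 25.7%). Mitochondrial genes, at 14.4% and 17.1% of the normalized total in Tg(hsp70l:sflt4) against 19.5% and 18.8% in WT, were also lowest in Tg(hsp70l:sflt4) replicate 1. Endocardial and endothelial markers, 10 of 10 measured, were even, at 47118 and 45584 in Tg(hsp70l:sflt4) against 50625 and 45830 in WT. Epicardial and fibroblast markers, 10 of 10 measured, summed to 100229 and 101040 in Tg(hsp70l:sflt4), against 112008 and 56668 in WT. Lymphocyte and thrombocyte markers, 8 of 11 measured, summed to 1338 and 1681 against 1667 and 2510, Tg(hsp70l:sflt4) before WT. No measured marker of any of these lists was at 0 in a library. Which cells gave the reads of the 5 genes was not tested.

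The genes whose pattern over the 4 libraries was most like that of each of the 5 were found among 11554 genes with a mean of at least 50 and a plain symbol, as the smallest root mean square difference of log2 deviations. For *fkbp5* the nearest was *nr1d2a*, for a nuclear receptor of the circadian clock, with 814 and 1788 normalized reads in Tg(hsp70l:sflt4) against 1718 and 2646 in WT (difference 0.147), followed by *slc6a22.2* (0.182) and *camk1db* (0.219). *klf9* was nearest to *rhbdf1b* (0.179), *syngr2b* (0.181) and *glula* (0.203). The last of these encodes glutamine synthetase, is itself a member of the list of other targets, and had 182 and 518 in Tg(hsp70l:sflt4) against 433 and 1075 in WT. The nearest to *nr3c1* was *egln1b*, for an oxygen-sensing prolyl hydroxylase, with 612 and 646 in Tg(hsp70l:sflt4) against 795 and 743 in WT (0.00868), then *dyrk1b* (0.0171) and *tsen15* (0.0180). For *tsc22d3* they were *TCIM* (0.0265), *il17rd* (0.0383) and *tdh2* (0.0497), and for *hsd11b2* *pnpla4* (0.0512), *bahcc1a* (0.0709) and *lmbr1l* (0.0826). Among the 5 genes the closest pairs were *tsc22d3* with *nr3c1* (0.331) and *fkbp5* with *klf9* (0.336), and the farthest was *nr3c1* with *klf9* (0.772). The measure counts the size of deviations as well as their shape, so genes that vary little come out close. *tsc22d3* and *nr3c1* differed in the order of their libraries, while *tsc22d3* and *fkbp5* had the same order at a distance of 0.463. These distances describe 4 libraries and carry no test.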

How the data were processed

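The authors deposited 1 value per gene and library, a score in the sense of read counts divided by a size factor and rounded, as the table's name and its nearly equal medians (328 to 335) show. Per the submitters' processing notes, the tools were DESeq2 1.18.1, featureCounts 1.6.3, Subread, Trimmomatic 0.38 and FastQC, listed with no role or order, and the build was danRer11. The aligner and the strand setting of the counting are not given in the sources used here. No other gene of the table overlaps the 5 genes.

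Size factors were estimated from the frequency of whole numbers (largest error 1e-05 on 6 simulated data sets) and give the read numbers. Rounding after division by a factor above 1 merges neighbouring counts, so no count test was used. The test was limma (version 3.58.1, under R version 4.3.3) with a trended and robust spread, on log2(value + 1), for genes with a mean of at least 10, with Benjamini-Hochberg adjustment over all genes tested, a threshold of 0.05 and no covariate. It was run on simulated data that held 100 changes of 4-fold and 100 of 16-fold, all in genes with a mean of at least 100. Of each size it recovered 100 of 100, with 4 false calls in the whole run. Spreads there were set around that of the median gene, so the simulation does not give the power for genes of wider spread. The log2(value + 1) scale understates differences of low genes. Since the labels say only that replicates are pools, p-values measure the spread between these libraries.

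Members and lists were chosen with earlier results of these data known. Of 238 list symbols 201 had a row, 3 of them through the gene identifier, and some genes stand in 2 lists. Named genes are the 5, up to 4 of each pathway list and of the macrophage markers with the smallest p, the 3 of most like pattern, *flt4* and *hsp70l*, and those said to be named after their values were seen. Alternatives changed the pseudocount (0.5, 5), filter (none, 50), scaling, test, block and libraries. Following the list medians and the counts at an unadjusted p under 0.05 through these alternatives was chosen after seeing the data.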

Additional observations from a re-analysis of the deposited data

How the results depend on the processing

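In the 13 alternatives all 5 genes kept a negative log2 difference and none passed the adjusted threshold. Outside the fits that leave out a library, the differences ranged from -0.80 to -0.69 for *fkbp5*, -0.43 to -0.31 for *tsc22d3*, -0.31 to -0.19 for *nr3c1*, -1.39 to -1.28 for *klf9* and -0.74 to -0.62 for *hsd11b2*. The number of genes called among all tested was 0 to 217 when single libraries were left out, 217 without WT replicate 1 and 73 without WT replicate 2, and 0 in the other alternatives. The count at an unadjusted p under 0.05, 1881 in the fit of 4 libraries, was 1064 when Tg(hsp70l:sflt4) replicate 1 was left out, 695 when its replicate 2 was, and it was 2568 or 2771 when WT replicate 1 or WT replicate 2 was. With equal totals 1584 genes were higher and 549 lower at that level, against 951 and 930. Libraries with the same replicate number share only that number, as nothing says that it pairs them. Taking the replicate number as a block gave an adjusted p of 0.265 for *klf9* and 0.300 for *fkbp5*, called 0 genes and put 2285 at an unadjusted p under 0.05. Under the block, limma's unadjusted p was 0.0223 for *fkbp5*, 0.0475 for *tsc22d3* and 0.00117 for *klf9*, so 3 of the 5 genes were lower under 0.05. Over all genes tested, 6.47% were lower at that level under the block. These 3 genes had replicate 2 above replicate 1 in both genotypes, a difference that the block takes out. The log2 difference of WT replicate 1 minus 2 correlated with that of Tg(hsp70l:sflt4) replicate 1 minus 2 at 0.14 across genes, which are not independent. With 2 libraries per genotype the intervals are wide, and *klf9*, with the fewest reads of the 5, has the largest counting error.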
